A study of Homo sapiens with 6 samples.

Results

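A set of phospholipase A2 genes of TFK1 cells was examined to see whether PLA2G2A was the only one to change after STUB1 overexpression. It was also asked how much of the summed transcripts of the chosen enzymes PLA2G2A made up. The members were picked by gene symbol, with earlier results of these data known. They were 9 enzyme genes (PLA2G2A, PLA2G10, PLA2G12A, PLA2G4A, PLA2G4C, PLA2G6, PLA2G7, PLA2G15 and PLAAT3) and 1 receptor gene, PLA2R1, and all 10 were listed among the 23569 genes of the deposited table. TFK1 is a human cell line from an extrahepatic bile duct carcinoma. RNA-seq covered 3 negative control libraries (oeNC) and 3 libraries in which STUB1, an E3 ubiquitin ligase, was overexpressed (oeSTUB1). The sample titles name no drug treatment for either group. Per the study's methods, overexpressing cells were made with a lentiviral vector and puromycin selection, so each group is 1 selected population as far as the sources tell, and population and STUB1 cannot be told apart. Nothing in the labels says whether the 3 libraries of a group came from separate cultures, so p-values measure the spread between these libraries, which may be technical.

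Phospholipases A2 cut a fatty acid from the middle position of the glycerol backbone of a membrane phospholipid. The cut frees fatty acids such as arachidonic acid, the source of prostaglandins and leukotrienes, and leaves a lysophospholipid behind. The family holds small secreted enzymes that need calcium, larger cytosolic enzymes, calcium-independent enzymes, and enzymes that act in lysosomes or on oxidised lipids. In bile, phospholipids protect the duct lining from bile salts, and the secreted enzyme PLA2G2A is also known as an antibacterial protein.

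The study asked about DNA methylation, which in vertebrates falls on the cytosine of CG pairs. The 250 bases upstream of the annotated start are therefore printed for the 3 members that fell and for the most abundant member, PLA2G4A, with each CG in capitals. They come from RefSeq (GRCh38.p14) and are written 5′ to 3′ on the strand of the gene. The windows were set by annotation, the study's bisulfite primers were not located in them, and they should not be read as the region it assayed. No methylation was measured in the data used here.
PLA2G2A, chr1:19980435-19980684, minus strand: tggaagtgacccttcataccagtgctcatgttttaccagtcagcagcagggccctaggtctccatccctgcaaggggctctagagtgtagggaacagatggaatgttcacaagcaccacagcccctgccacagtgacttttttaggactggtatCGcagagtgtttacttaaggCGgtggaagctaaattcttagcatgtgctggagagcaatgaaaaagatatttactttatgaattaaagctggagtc
PLA2G6, chr22:38181831-38182080, minus strand: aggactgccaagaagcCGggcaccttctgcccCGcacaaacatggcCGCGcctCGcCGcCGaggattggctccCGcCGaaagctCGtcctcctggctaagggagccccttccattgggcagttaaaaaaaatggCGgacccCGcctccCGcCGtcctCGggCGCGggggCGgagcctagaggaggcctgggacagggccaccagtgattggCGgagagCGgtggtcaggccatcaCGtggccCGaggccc
PLA2R1, chr2:160062616-160062865, minus strand: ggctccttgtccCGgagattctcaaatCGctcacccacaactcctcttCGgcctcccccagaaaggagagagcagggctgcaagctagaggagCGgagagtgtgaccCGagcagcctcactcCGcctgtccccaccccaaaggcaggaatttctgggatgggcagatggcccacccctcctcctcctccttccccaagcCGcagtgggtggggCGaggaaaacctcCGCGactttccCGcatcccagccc
PLA2G4A, chr1:186828699-186828948, plus strand: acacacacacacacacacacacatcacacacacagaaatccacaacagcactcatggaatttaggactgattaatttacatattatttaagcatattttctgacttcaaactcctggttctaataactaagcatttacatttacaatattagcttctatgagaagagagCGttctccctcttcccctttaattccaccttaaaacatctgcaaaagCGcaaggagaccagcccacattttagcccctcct

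The upstream windows of PLA2G2A and PLA2G4A held 2 CG pairs each, and 22.9% of the 35116 windows of this length in the RefSeq table held as few or fewer. The median over all windows was 11 pairs. The window of PLA2R1 held 11 pairs and that of PLA2G6 held 22, which 28.0% of windows reached or passed. PLA2G2A has further annotated starts downstream, whose windows held 4 and 3 CG pairs and overlap annotated exons, so they are not printed. The windows of the 3 members that fell held from 2 to 22 CG pairs, and that of PLA2G4A, which did not pass the test, held 2. Whether CG content or methylation bears on any change was not tested here. Sequences were found for 9 of the 10 members, PLA2G4C being without one.

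Values are FPKM, fragment counts scaled to gene length and to library size, so levels of different genes are on one scale, except that a gene can be listed too low or too high where its fragments are shared with another gene model. The low listed levels of ALDOA and KRT19, described below, were not explained. Ranks, shares and ratios between genes carry the same uncertainty. Library totals recovered from the FPKM steps lay between 33106564 and 36744521 fragments, so that 3 fragments of PLA2G2A, taken as the counting floor, were worth between 0.0795 and 0.0882 FPKM. STUB1, the overexpressed gene, rose from 32.3 ± 1.23 to 66.1 ± 7.70 FPKM (SD, n = 3 each). OeSTUB1 replicate 2 stood apart from its group, since chi-square over its degrees of freedom came to 71.1 and 76.7 against the other oeSTUB1 libraries, where other replicate pairs gave 3.37 to 9.82. Of 7 biliary epithelial markers, by the test described below, 4 were called lower in oeSTUB1 (KRT8, KRT18, EPCAM and CDH1), beside 6.59% of all tested genes. KRT19, at 0.453 ± 0.0776 FPKM in oeNC, was the 1 called higher, beside 7.01%. KRT7 rose from 502 ± 23 to 704 ± 149 FPKM without overlap but was not called (adjusted p = 0.082 from limma), and SOX9 was not called. The summed level of the 7 was 7419 to 7996 FPKM in oeNC and 4724 to 6263 FPKM in oeSTUB1. The part of this shift in the results below was not tested. The summed level of 8 fibroblast markers was 1.31 to 2.36 FPKM in oeNC and 2.16 to 4.05 FPKM in oeSTUB1. Most of it was COL1A1, with means of 1.62 FPKM in oeNC and 2.81 FPKM in oeSTUB1. The means of COL3A1 (0.0261 to 0.0738 FPKM) and THY1 (0.0119 to 0.0731 FPKM) rose, that of LUM fell (0.220 to 0.0596 FPKM), and DCN was at 0 in every oeNC library. Of the 2 fibroblast markers tested, COL1A1 and LUM, 0 were called. The 8 leukocyte markers summed to 32.4 to 34.7 FPKM in oeNC and 25.9 to 26.6 FPKM in oeSTUB1, most of it CD68, the 1 leukocyte marker called, which was lower in oeSTUB1 and is not restricted to leukocytes. The 4 endothelial markers summed to at most 0.231 FPKM in any library. Of 5 Paneth cell markers 3 were not listed, and ITLN2 was at 0 in oeNC. The remaining one, LYZ, also in the leukocyte list, had means of 0.944 ± 0.507 FPKM in oeNC and 1.38 ± 0.511 FPKM in oeSTUB1 and was not called.

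PLA2G2A, PLA2G6 and PLA2R1 were lower in oeSTUB1 cells, and no member was higher. Differences were tested with limma on log2(FPKM + 0.1) over the 15353 genes averaging 0.1 FPKM or more, and a gene was called where its p-value, adjusted by the Benjamini-Hochberg method, was under 0.05. Of the 10 members, 8 passed this filter and 2, PLA2G10 and PLA2G7, did not. Of the 8 tested, 3 were called, beside 13.6% of all tested genes. All 3 were lower, beside 6.59% of all tested genes, and 0 were higher, beside 7.01%. PLA2G2A was already the study's target gene, picked from these libraries together with DNMT1 ChIP-seq and RT-qPCR, so its call is not independent. Apart from these libraries, the study reported less PLA2G2A RNA and protein after STUB1 overexpression in TFK1 and HuCCT1 cells. Of the other 7 tested members 2 were called. All 10 members were chosen with earlier results of these data known, so the counts of called members are not independent of the data. Of the members called, 1, PLA2G2A, also had an absolute log2 fold change over 1, beside 5.2% of tested genes in either direction and 2.4% below -1. Of the tested members 4 had a negative and 4 a positive log2 fold change, with a median of -0.01 beside 0.02 over all tested genes. In 5 of the 8 the groups did not overlap, beside 38.8% of tested genes, and 4 of these were lower in oeSTUB1, beside 17.3%.

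**Figure D1:**
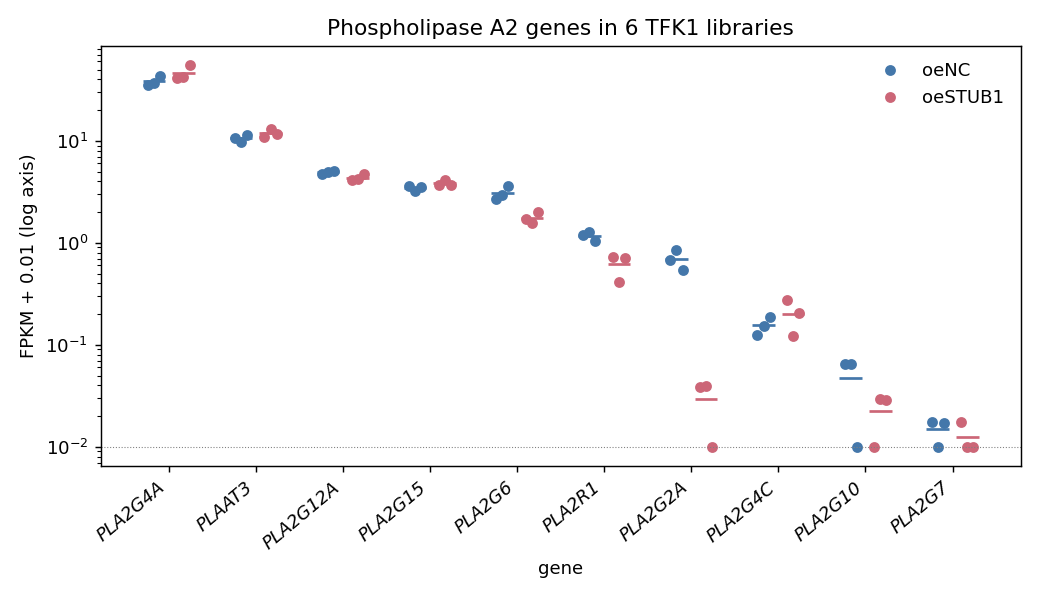
FPKM of the 10 members in each library, with 0.01 added for a log axis. Points are libraries (3 oeNC and 3 oeSTUB1), bars are group means, and points on the dotted line are listed at 0. PLA2G4A sits above 35 FPKM in all 6 libraries, and PLA2G2A leaves the range of 0.530 to 0.843 FPKM in oeNC for 0 to 0.0294 FPKM in oeSTUB1.

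Among the secreted enzymes, PLA2G2A fell to at most 1 fragment per library, and the more abundant PLA2G12A did not pass the test. On chromosome 1 (GRCh38, GENCODE release 29) PLA2G2A spans 19975431 to 19980416, read from the minus strand. Its expression was 0.673, 0.843 and 0.530 FPKM in oeNC replicates 1, 2 and 3, and 0.0283, 0.0294 and 0 FPKM in oeSTUB1 replicates 1, 2 and 3. The groups did not overlap, and the oeSTUB1 values were made of 1, 1 and 0 fragments. With the oeSTUB1 libraries set at the floor of 3 fragments each, the mean of oeNC was 7.92-fold higher. This value leaves out the spread between the oeNC libraries. The log2 fold change was -2.70 (95% confidence interval -3.27 to -2.14, adjusted p = 0.00052 from limma), on a scale where the pseudocount shrinks changes of low genes. A two-sided exact permutation test gave p = 0.1, the smallest that 3 libraries against 3 allow. In bulk RNA, fewer cells that express a gene and less RNA per cell cannot be told apart.

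PLA2G12A, an atypical secreted enzyme, lies on chromosome 4 from 109709989 to 109730077. It was expressed at 4.77, 4.90 and 5.02 FPKM in oeNC and at 4.09, 4.23 and 4.75 FPKM in oeSTUB1. All oeSTUB1 values were below all oeNC values, although the closest lay 4.75 against 4.77 FPKM. The log2 fold change of -0.17 did not pass (confidence interval -0.39 to 0.06, adjusted p = 0.29 from limma). GENCODE places 823 exonic bases of another gene model on the same strand, which was not listed in the table, so the values of PLA2G12A may hold its fragments.

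PLA2G10, a secreted enzyme with high activity on phosphatidylcholine, gave 3, 3 and 0 fragments in oeNC replicates 1 to 3, against 0, 1 and 1 in oeSTUB1. Both groups were at or under the floor, so no fold is given. RefSeq names 8 pseudogenes of PLA2G10 on chromosome 16, so its few fragments are uncertain. Within PLA2G2A, PLA2G10 and PLA2G12A together, PLA2G2A held 12.1% ± 2.50 of the summed FPKM in oeNC and 0.458% ± 0.397 in oeSTUB1 (SD, n = 3 each). These 3 genes summed to 5.61 ± 0.159 FPKM in oeNC, against 4.39 ± 0.340 FPKM in oeSTUB1. PLA2G12A thus outweighed PLA2G2A in every library, by 5.81 to 9.47 times in oeNC.

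**Figure D2:**
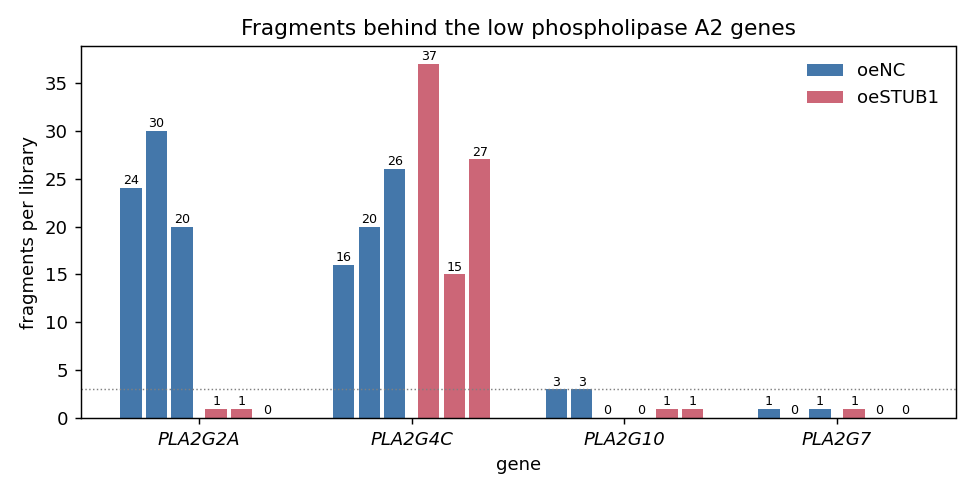
Fragments per library for the 4 members with the lowest FPKM, in order of replicate 1, 2 and 3 within oeNC (blue) and oeSTUB1 (red). The dotted line marks the floor of 3 fragments. PLA2G2A drops from 20 to 30 fragments to at most 1, PLA2G4C overlaps between the groups, and PLA2G10 and PLA2G7 never exceed 3.

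The only receptor in the set, PLA2R1, fell as well. PLA2R1 encodes a large membrane receptor of the mannose receptor family that binds secreted phospholipases A2, and it lies on chromosome 2 from 159932006 to 160062610. It was expressed at 1.18, 1.28 and 1.02 FPKM in oeNC and at 0.715, 0.406 and 0.700 FPKM in oeSTUB1, from 601 to 709 and from 215 to 394 fragments per library. The groups did not overlap, with the lowest value in oeSTUB1 replicate 2. The mean fell by 47.6%, with a log2 fold change of -0.86 (confidence interval -1.36 to -0.36, adjusted p = 0.037 from limma). Without oeSTUB1 replicate 2 the log2 fold change was -0.64 (adjusted p = 0.018 from limma). That fit called 4118 of all genes, beside 2088 with all libraries. The call was lost without any one of the other 5 libraries (adjusted p from 0.051 to 0.14 from limma), with log2 fold changes from -0.98 to -0.79. Without the filter on low values the adjusted p from limma was 0.085, at the same log2 fold change of -0.86. Of the 1031 tested genes of chromosome 2, 77.3% were lower, and their median log2 fold change was -0.21, against medians of 0.01 to 0.07 on the 7 other chromosomes that carry members. The part of this chromosome-wide shift in the value of PLA2R1 was not tested.

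Of the cytosolic enzymes, the calcium-independent PLA2G6 fell and the calcium-dependent PLA2G4A did not pass the test. PLA2G6, known for membrane repair and for neurological disease when mutated, lies on chromosome 22 from 38111495 to 38205690. It was expressed at 2.71, 2.92 and 3.56 FPKM in oeNC and at 1.69, 1.54 and 2.01 FPKM in oeSTUB1, from 322 to 449 and from 175 to 235 fragments. Every oeSTUB1 library lay below every oeNC library. The mean fell by 43.0%, with a log2 fold change of -0.77 (confidence interval -1.12 to -0.43, adjusted p = 0.013 from limma). Without oeNC replicate 2 and without oeNC replicate 3 the adjusted p-values were 0.053 and 0.056, with log2 fold changes of -0.80 and -0.66. The fit without oeSTUB1 replicate 2, which called 4118 genes beside 2088, gave an adjusted p = 0.011 from limma, with a log2 fold change of -0.69. An antisense gene shares 1518 exonic bases with PLA2G6 in GENCODE, and whether fragments were counted by strand is not given in the sources used here. Genes on the opposite strand also share exonic bases with PLA2G4C (326), PLA2G15 (202) and PLA2G7 (119). The median of the 366 tested genes of chromosome 22 was 0.02.

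PLA2G4A encodes the arachidonate-selective cytosolic enzyme that calcium and MAP kinases activate, and it was the most abundant member in every library. It lies on chromosome 1 from 186828953 to 186988981. It was expressed at 35.1, 37.1 and 42.9 FPKM in oeNC and at 41.1, 42.5 and 55.4 FPKM in oeSTUB1. The groups overlapped, since oeNC replicate 3 exceeded oeSTUB1 replicates 1 and 2. The log2 fold change was 0.26 (confidence interval -0.04 to 0.57, adjusted p = 0.23 from limma), so an increase of up to 0.57 on the log2 scale lies within the interval. Without oeSTUB1 replicate 3, the highest library, it was 0.13 (adjusted p = 0.48 from limma).

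PLA2G4C, a calcium-independent relative of PLA2G4A, was near the filter. It gave 16, 20 and 26 fragments in oeNC against 37, 15 and 27 in oeSTUB1, or 0.145 ± 0.0307 and 0.192 ± 0.0773 FPKM (SD, n = 3 each). The groups overlapped, with the highest and the lowest library both in oeSTUB1. The log2 fold change of 0.23 had a wide interval (-0.40 to 0.85, adjusted p = 0.62 from limma). That interval holds changes of either direction, and the size of change that could be detected at this depth was not computed.

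PLAAT3 and the lysosomal PLA2G15 did not pass the test, and PLA2G7 was below the filter and not tested. PLAAT3, which was first named as a tumour suppressor and is the main phospholipase A2 of fat tissue, was expressed at 10.8, 9.69 and 11.5 FPKM in oeNC and at 10.8, 12.99 and 11.6 FPKM in oeSTUB1. Its groups overlapped, and the log2 fold change was 0.15 (confidence interval -0.09 to 0.38, adjusted p = 0.38 from limma). PLA2G15, the lysosomal enzyme, was expressed at 3.64, 3.19 and 3.55 FPKM in oeNC and at 3.68, 4.15 and 3.67 FPKM in oeSTUB1. All oeSTUB1 values lay above all oeNC values, by as little as 3.67 against 3.64 FPKM, and the log2 fold change of 0.14 did not pass (confidence interval -0.10 to 0.39, adjusted p = 0.40 from limma). PLA2G7, which circulates on lipoproteins and degrades platelet-activating factor, gave at most 1 fragment in any library and is given no fold.

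**Figure D3:**
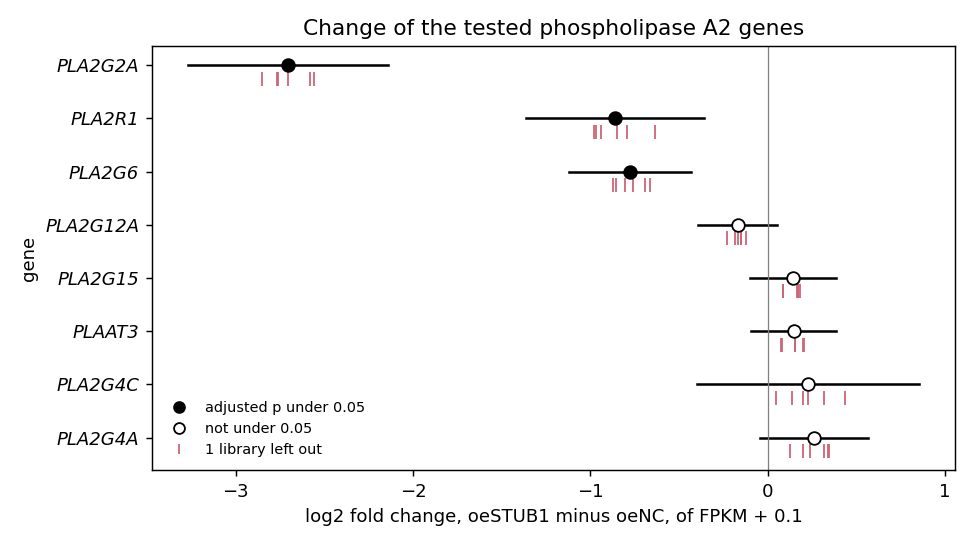
Log2 fold change of FPKM + 0.1, oeSTUB1 minus oeNC, for the 8 tested members, with 95% confidence intervals from limma. Filled points passed an adjusted p-value of 0.05, and red ticks are the values with 1 library left out. PLA2G2A stands at -2.70, PLA2R1 at -0.86 and PLA2G6 at -0.77, and the intervals of the other 5 include 0.

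The order of the levels in oeNC was PLA2G4A, PLAAT3, PLA2G12A, PLA2G15, PLA2G6, PLA2R1, PLA2G2A, PLA2G4C, PLA2G10 and PLA2G7. Only the ranges of PLA2G15 and PLA2G6, and those of PLA2G10 and PLA2G7, overlapped between neighbours. In oeSTUB1 the order of the first 6 genes was as in oeNC, and PLA2G2A moved from rank 7 to rank 8, below PLA2G4C. There PLA2G12A overlapped with PLA2G15, and PLA2G2A, PLA2G10 and PLA2G7 overlapped with their neighbours at the floor. PLA2G6, which overlapped with PLA2G15 in oeNC, lay wholly below it in oeSTUB1.

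PLA2G2A was a small part of the summed transcripts of the 9 chosen enzymes even in oeNC cells. Of the summed FPKM of the 9 enzymes, PLA2G2A made up 1.16%, 1.43% and 0.788% in oeNC replicates 1, 2 and 3, and 0.0458%, 0.0448% and 0% in oeSTUB1 replicates 1, 2 and 3. PLA2G4A made up 62.5% ± 1.61 in oeNC and 67.6% ± 3.37 in oeSTUB1, and PLAAT3 17.4% ± 1.10 and 17.4% ± 2.43 (SD, n = 3 each). PLA2G4A was thus listed at 44.0 to 81.0 times the FPKM of PLA2G2A in the oeNC libraries. The share of PLA2G6 was 4.98% ± 0.312 in oeNC and 2.56% ± 0.199 in oeSTUB1. The summed FPKM was 61.3 ± 5.15 in oeNC and 68.3 ± 8.31 in oeSTUB1 (SD, n = 3 each) and the group ranges overlapped. In FPKM the mean of PLA2G6 fell by 1.32, the mean of PLA2G2A fell by 0.663 and the mean of PLA2R1 fell by 0.552. On the log2 scale the order was different, PLA2G2A having the lowest value. Transcript levels say nothing of enzyme amount, secretion or activity.

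**Figure D4:**
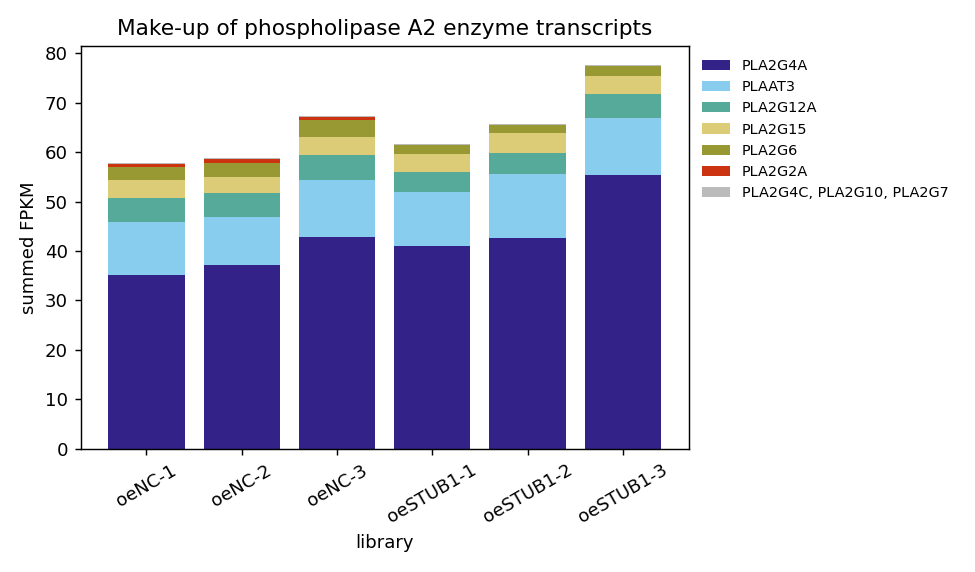
FPKM of the 9 enzyme genes stacked for each library, with PLA2G4C, PLA2G10 and PLA2G7 as 1 segment. PLA2G4A fills 60.7% to 71.3% of each bar, and the red segment of PLA2G2A, 0.788% to 1.43% in oeNC, is not visible in oeSTUB1.

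Other genes of the family and of the lipid steps around it were taken as lists. The lists were chosen with earlier results of these data known, so their counts are not independent of the data. Of 28 relatives (further PLA2G genes and the PLAAT, PAFAH and PNPLA genes), 20 were listed, 11 were tested, 1 was called higher and 0 lower, beside 7.01% and 6.59% of all tested genes, and the median log2 fold change was 0.00. The 1 was PNPLA4, a patatin-like lipase on the X chromosome, which rose from 0.463 ± 0.0756 to 2.12 ± 0.401 FPKM (log2 fold change 1.97, adjusted p = 0.00056 from limma). The other PLA2G genes listed, PLA2G1B, PLA2G2F, PLA2G4B, PLA2G4E and PLA2G4F, had at most 8 fragments in any library and were below the filter.

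The reacylation list joins acyltransferases, which put fatty acids back onto lysophospholipids, with acyl-CoA synthetases of the ACSL family, which activate the free fatty acids. Of its 13 tested genes 4 were called higher and 0 lower, beside 7.01% and 6.59% of all tested genes, and the list median was 0.03 beside 0.02 over all tested genes. LPCAT1, which acylates lysophosphatidylcholine, rose from 19.0 ± 1.59 to 36.7 ± 2.98 FPKM (SD, n = 3 each). MBOAT7, which places arachidonate on lysophosphatidylinositol, rose from 26.4 ± 0.506 to 36.1 ± 2.29 FPKM. LPCAT3 rose by 0.32 and ACSL4, which activates arachidonic acid, by 0.37 on the log2 scale. The adjusted p-values of the 4 genes lay between 0.00088 for LPCAT1 and 0.036 for ACSL4 (limma).

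Of 12 tested genes that handle lysophospholipids, 1 was called, beside 13.6% of all tested genes. It was PLPP3, a lipid phosphate phosphatase that rose by 0.49 on the log2 scale. Of 15 tested genes of eicosanoid synthesis, 3 were called higher and 2 lower, beside 7.01% and 6.59% of all tested genes, with a list median of 0.17. PTGES, the inducible prostaglandin E synthase, rose from 11.0 ± 0.612 to 31.9 ± 2.90 FPKM (log2 fold change 1.52, adjusted p = 0.00012 from limma). PTGR1, which inactivates eicosanoids, fell from 161 ± 5.05 to 97.5 ± 11.0 FPKM (log2 fold change -0.73, adjusted p = 0.0027 from limma). The other 3, TBXAS1 and ALOX5AP higher and PTGDS lower, had means under 1 FPKM in both groups and were named after their values were seen. The cyclooxygenase PTGS2 varied widely between libraries, with means of 43.1 ± 16.1 and 47.6 ± 14.6 FPKM in oeNC and oeSTUB1 (adjusted p = 0.74 from limma), and PTGS1 was below the filter. Of 7 regulators of phospholipase A2, MAPK3, a kinase that phosphorylates the PLA2G4A protein, was the 1 called, beside 13.6% of all tested genes, and it fell from 24.3 ± 0.998 to 18.1 ± 2.20 FPKM.

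Among the 11375 genes that averaged 1 FPKM or more, the 3 whose log2(FPKM + 0.1) followed PLA2G2A most closely over the 6 libraries were ALDOA (Pearson r = 0.998), GTF2I-AS1 (0.997) and OLFML3 (0.997). With 6 libraries in separated groups, this correlation mostly reflects the group difference and is given as a description. OLFML3 fell from 24.6 ± 2.78 to 5.91 ± 0.622 FPKM and ALDOA from 8.51 ± 0.314 to 5.99 ± 0.120 FPKM (SD, n = 3 each). ALDOA, a glycolytic enzyme, and KRT19, a keratin of bile duct cells, are usually abundant in epithelial cell lines, so their low listed levels leave it uncertain what these values measure, and the cause was not tested.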

How the data were processed

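RNA-seq of 6 TFK1 libraries (3 oeNC, 3 oeSTUB1) was used, grouped by sample title. The authors deposited 1 table of FPKM values for 23569 genes. The submitters' processing notes name fastp 0.20.1, HISAT2 2.1.0, HTSeq 0.11.2, R 3.2.0, DESeq2 1.22.2 and GRCh38.p13, without roles. The annotation and the strand setting are not given in the sources used here. Whole fragments and library totals were recovered from the FPKM steps for 23569 genes (within 0.001 fragments), possibly too low by a common divisor.

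The test was limma's (version 3.58.1, R 4.3.3, two-sided, with eBayes and a trend) on log2(FPKM + 0.1), with Benjamini-Hochberg adjustment over the 15353 genes averaging 0.1 FPKM or more. The limma step and the recovery were tested on simulated data. No batch is given in the labels. Replicates differed by more than sampling noise, so none was treated as a copy. Floors of 3 fragments cover counting error alone. Genes at or under the floor in both groups got no fold.

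The rule for named genes took the 10 members, STUB1, PTGS1, PTGS2, up to 4 called genes per pathway list whose higher group averaged 1 FPKM or more, and 3 genes correlating with PLA2G2A. Outside it, cell type markers, low PLA2G relatives and called eicosanoid genes under 1 FPKM were named after their values were seen. The members and lists were chosen with earlier results of these data known. From the biliary marker list, 1 gene is not reported here. Tried in turn were a filter at 1 FPKM or none, pseudocounts of 0.01 and 1, median-ratio and quantile scaling, eBayes without trend, a replicate block, limma-voom on fragments, and leaving out each library. Coordinates are from GENCODE release 29, upstream sequences from RefSeq GRCh38.p14.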

Additional observations from a re-analysis of the deposited data

How the results depend on the processing

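PLA2G2A stayed lower with an adjusted p-value under 0.05 in each of the 14 alternative fits that tested it. Its log2 fold change was -0.72 at a pseudocount of 1 and -4.78 at 0.01, and lay between -2.85 and -2.56 with 1 library left out. The number of members called was 1 with a filter at a mean FPKM of 1, since PLA2G2A and PLA2R1 were then not tested, and 1 to 3 with 1 library left out, the 1 occurring without oeNC replicate 2 and without oeNC replicate 3. Of all genes 2088 were called with all libraries, 927 when oeNC replicate 2 was left out (953 for replicate 1, 1036 for replicate 3) and 4118 when oeSTUB1 replicate 2 was. The share of PLA2G2A ranged from 0.976% to 1.30% in oeNC and from 0.0224% to 0.0453% in oeSTUB1 with 1 library left out. PLA2G6 lost its call in 2 of 15 alternatives and PLA2R1 in 7 of 14, and the 5 members not called in the report kept their direction and stayed uncalled in the alternatives run. Same-numbered libraries did not deviate together (correlations of deviations from -0.05 to 0.06, with 2 of 6 libraries correlating best with their own number). With the replicate number as a block 1488 genes were called, and PLA2R1 had an adjusted p = 0.067 from limma. Fragment numbers limit what can be said of PLA2G10, PLA2G7 and PLA2G4C.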
